A study of Mus musculus with 5 samples.

Results

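The 8 genes described here belong to the interleukin-1 (IL-1) system and were followed through untreated mouse colon. They are the ligands Il1a, Il1b, Il33 and Il18, the receptor antagonist Il1rn, and the receptor chains Il1r1, Il1rl1 and Il1rap. The genes were taken by symbol, and all 8 were found among the 20355 genes of the 5 tables of UMI counts (a UMI, or unique molecular identifier, stands for 1 captured mRNA molecule). The cells came from colon mesenchyme of C57/BL6 mice aged 10 weeks, with no treatment of mice or cells, so no group serves as a control and the comparisons are between cell types. Epithelium was stripped with EDTA and DTT, the remaining tissue was digested with Collagenase XI and Dispase, and the freshly isolated cells were captured by Drop-seq, which tags the polyA RNA of single cells in droplets. There were 2 biological replicates, the first run as 2 droplet collections (1A and 1B) and the second as 3 (2A, 2B and 2C). The number of mice behind a replicate is not given in the sources used here, so p-values rest on these 2 preparations and do not measure a spread between mice. The tests took out the shift between the preparations and estimated the remaining spread over all cell types of a fit. A small p-value or standard error (SE) therefore does not mean that the 2 replicates of a gene were close.

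IL-1α (Il1a) and IL-1β (Il1b) both bind the receptor IL-1R1 (Il1r1), which signals only after recruiting the accessory protein IL-1RAcP (Il1rap), and the ensuing MyD88 and NF-κB signalling induces chemokines, adhesion molecules and cyclooxygenase. IL-1 receptor antagonist (Il1rn) occupies IL-1R1 without signalling. IL-33 (Il33) is a nuclear alarmin of barrier tissue that acts through ST2 (Il1rl1) with the same accessory protein, for example on group 2 innate lymphoid cells (ILC2s), and IL-18 (Il18) is known in the gut mostly from epithelium.

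All 8 are protein-coding genes. Il1a (chr2:129299610-129309972), Il1b (chr2:129364570-129371139), both on the minus strand, and Il1rn (chr2:24336853-24351494) lie on chromosome 2, and the receptor genes Il1r1 (chr1:40225080-40317257) and Il1rl1 (chr1:40429570-40465415) both lie on chromosome 1, in GENCODE's annotation of GRCm38. Il1rap (chr16:26581704-26730117), Il33 (chr19:29925114-29960718) and Il18 (chr9:50554827-50581840) lie elsewhere. Il1b overlaps the antisense gene Il1bos, and Il18, Il1a and Il1rap overlap Bco2, Gm14023 and Gm20319 on the other strand, which had 10, 7 and 2 UMIs in all retained cells. Tex12 also overlaps Il18 on the other strand and Gm38070 overlaps Il1r1 on the same strand, where no strand setting separates reads. The strand setting of the counting is not given, so reads of such partners cannot be told apart.

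RefSeq's promoter windows (250 bases before to 50 after an annotated start, GRCm38.p6) were matched for 8 of 8 genes and gave 13 windows, of which 5 are shown here. Il1rl1, Il33, Il1rn and Il1r1 each have more than 1 start, which counts per gene cannot separate. Of these, the windows of Il1rl1 and Il33 are shown, and that of Il1b is added because it reached the highest levels of the set. In mouse haematopoietic cells, Il1rl1 is known to be transcribed from its distal start, and in fibroblasts from the proximal one. Capitals mark GATA motifs (AGATAA or AGATAG, and likewise TGATAA or TGATAG, on either strand) in the windows of Il1rl1 and Il1b, and the TATA box letters TATAAA in those of Il33 and Il1b. The distal and proximal Il1rl1 windows are chr1:40429320-40429619 and chr1:40439379-40439678, those of Il33 are chr19:29924863-29925162 and chr19:29945540-29945839, all on the plus strand, and that of Il1b is chr2:129371090-129371389 on the minus strand.
Il1rl1 distal start: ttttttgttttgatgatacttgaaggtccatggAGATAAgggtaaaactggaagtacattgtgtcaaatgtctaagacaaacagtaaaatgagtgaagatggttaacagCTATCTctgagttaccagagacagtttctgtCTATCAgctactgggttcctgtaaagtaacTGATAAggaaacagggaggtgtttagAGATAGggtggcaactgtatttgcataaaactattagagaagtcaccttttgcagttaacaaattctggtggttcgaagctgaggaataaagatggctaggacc
Il1rl1 proximal start: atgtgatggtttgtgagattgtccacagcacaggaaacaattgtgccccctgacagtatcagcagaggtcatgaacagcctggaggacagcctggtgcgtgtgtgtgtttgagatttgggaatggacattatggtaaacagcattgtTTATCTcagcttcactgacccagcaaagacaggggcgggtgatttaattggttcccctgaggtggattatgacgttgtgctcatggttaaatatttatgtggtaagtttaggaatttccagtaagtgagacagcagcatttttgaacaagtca
Il33 first start: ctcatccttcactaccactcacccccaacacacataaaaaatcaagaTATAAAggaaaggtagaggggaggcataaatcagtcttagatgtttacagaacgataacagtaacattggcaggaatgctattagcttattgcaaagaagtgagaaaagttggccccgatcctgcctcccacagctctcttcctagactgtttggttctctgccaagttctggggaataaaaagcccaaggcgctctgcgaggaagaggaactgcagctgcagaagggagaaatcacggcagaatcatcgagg
Il33 second start: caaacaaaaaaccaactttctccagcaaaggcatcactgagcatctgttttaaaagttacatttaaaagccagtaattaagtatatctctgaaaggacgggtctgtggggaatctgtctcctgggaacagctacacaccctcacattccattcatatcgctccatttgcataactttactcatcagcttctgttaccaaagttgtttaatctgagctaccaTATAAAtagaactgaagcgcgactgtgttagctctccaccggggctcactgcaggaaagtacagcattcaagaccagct
Il1b start: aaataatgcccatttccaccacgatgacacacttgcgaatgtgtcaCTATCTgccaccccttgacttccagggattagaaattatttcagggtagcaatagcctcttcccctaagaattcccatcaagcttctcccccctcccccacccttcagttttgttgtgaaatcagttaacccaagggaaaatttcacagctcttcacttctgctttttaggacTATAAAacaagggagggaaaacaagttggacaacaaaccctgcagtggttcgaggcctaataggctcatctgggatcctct

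The distal Il1rl1 window held 5 GATA motifs and the proximal one 1. Of 32851 promoter windows, 29.8% held at least 1 and 18 held 5 or more. TATAAA ended 24 bases before the second Il33 start and 26 bases before the Il1b start, and stood 203 bases before the first Il33 start; 13.6% of all windows held it on 1 strand or the other. Such matches describe letters and are not evidence of binding.

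Of 7935 deposited barcodes, 6005 had 300 or more genes and at most 10% mitochondrial UMIs. They held 10229795 UMIs, 1461337 to 2953455 per collection, with a median of 1226.5 to 1455.5 UMIs per cell. Cells were clustered without the 8 genes and without every gene of the pathway lists used below, then named from marker genes. This gave 10 classes large enough to test, from 125 dendritic cell-like to 3148 fibroblast-like cells. There were 6 barcodes that occurred in 2 collections, and a doublet caller marked 23 cells, too few to be relied on, so none was removed. Levels are CPM, the UMIs of a gene summed over the cells of a class in a replicate and scaled to a common total. They are read from transcripts' 3′ ends and were tested between cell types only. Where genes are ranked by level, as in choosing which to show or name, the order describes captured UMIs. Adjusted p-values are from edgeR's quasi-likelihood test of each class against the mean log level of the others, over all genes tested, with 0.05 as the threshold.

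Il1b, Il1rn and Il1a were highest in the 2 myeloid classes, Il33 in lymphatic endothelial-like cells and fibroblasts, Il1rl1 in lymphocytes and fibroblasts, Il1r1 in blood endothelium and fibroblasts, and Il1rap in enteric glia. Across classes, 7 of the 8 passed the filter on low counts, all but Il18. In 70 tests of a gene in a class, 14 were higher (20%) and 10 lower (14.3%), against 22.8% higher and 13.2% lower over all genes tested. The number of calls was therefore near that of genes in general. A gene with no UMI in 1 class cannot be called lower in another, because the mean log level of the others then has no lower limit. Such a class also raises the fold change of the others, so a call of higher can rest on it. Without collection 1B, 9 were higher and 2 lower, and without 1A, 2A or 2C, 5, 6 and 4 were lower.

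**Figure D1:**
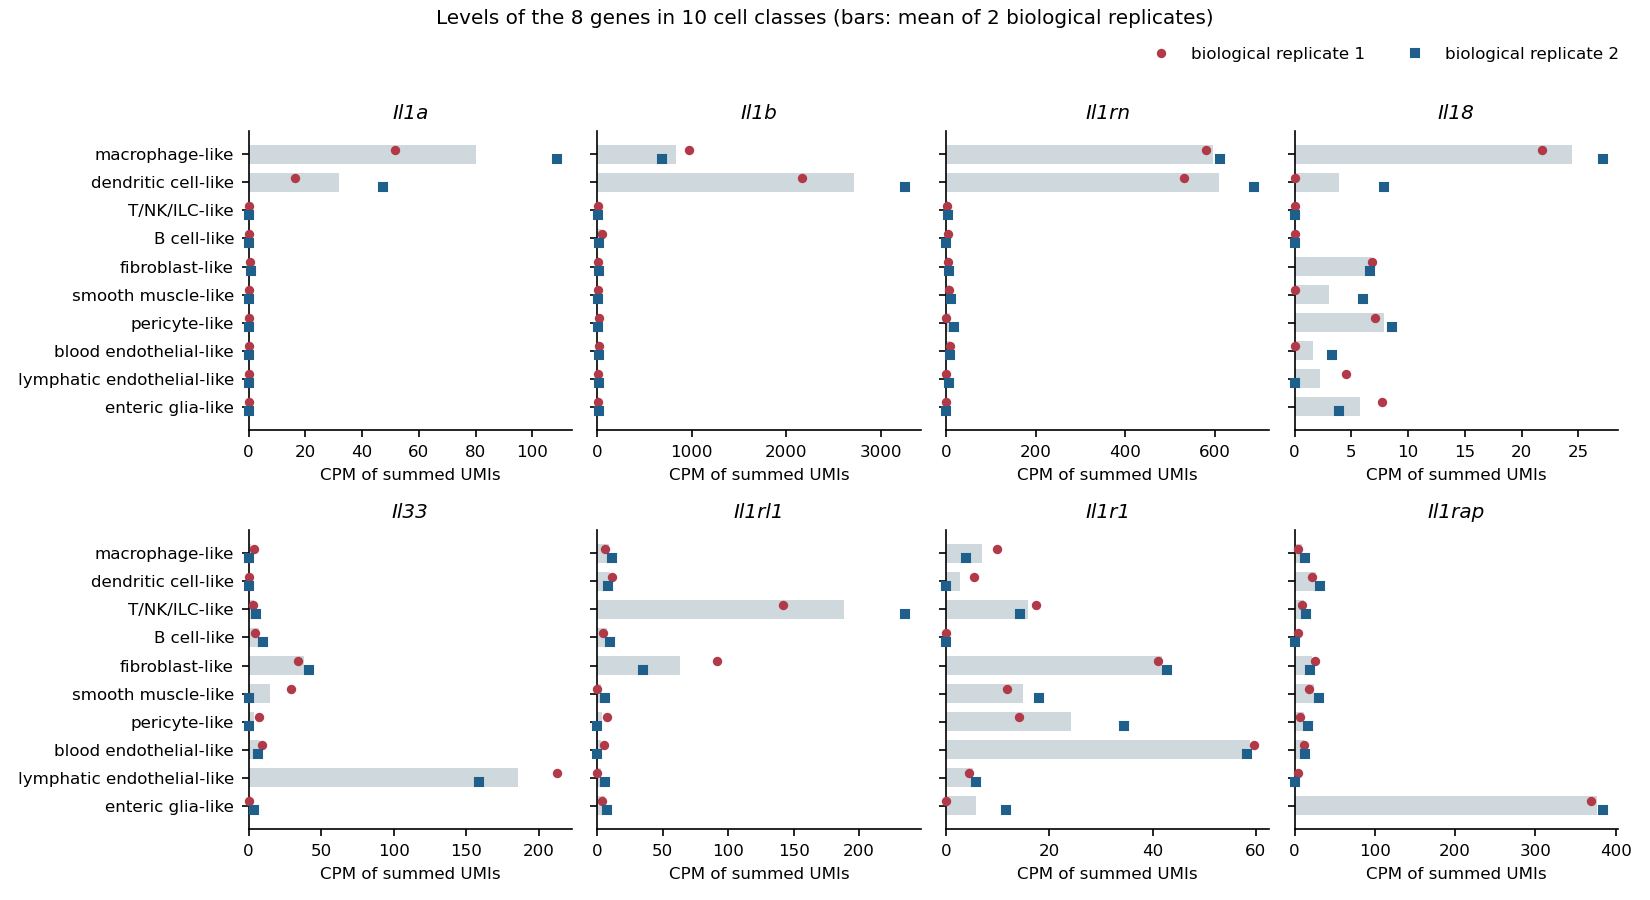
Levels of the 8 genes (a panel for each gene, CPM of summed UMIs on the horizontal axes, a separate scale for each gene) in 10 cell classes; bars are means of 2 biological replicates, circles and squares the replicates. Il1b reached 2164 and 3257 CPM in dendritic cell-like cells, and Il1rap 369 and 384 CPM in enteric glia-like cells, while Il18 stayed at or under 27.1 CPM in all 10.

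The inducible pro-inflammatory ligand Il1b peaked in the dendritic cell-like class, with 2164 and 3257 CPM in replicates 1 and 2 (mean 2711 ± 773, SD, n = 2, as for every ± of a level below). Macrophage-like cells had 970 and 690 CPM (830 ± 198). The replicates of these classes did not overlap with each other or with any other class, whose highest value was 49.6 CPM, in B cell-like cells of replicate 1. The log2 fold change over the mean of the other classes was 6.96 ± 0.16 (SE) in dendritic cell-like cells (adjusted p = 2.7e-260) and 5.31 ± 0.17 in macrophage-like cells (adjusted p = 5.9e-164). Between these neighbours it was 1.48 ± 0.19 in favour of the dendritic class (adjusted p = 5.8e-14), and the next step, macrophage-like over B cell-like cells, was 4.76 ± 0.32 (adjusted p = 2.0e-43). The B cell-like level rested on 13 UMIs, 6 of them in 1 cell. The 6 classes called lower were fibroblasts (12.8 and 16.6 CPM), blood and lymphatic endothelium, T/NK/ILC-like cells, glia and smooth muscle; each of these calls was lost in 1 to 7 of 15 alternatives, and all but that of T/NK/ILC-like cells without collection 1B. Their levels, with pericytes, lay between 4.51 and 17.7 CPM, and no neighbouring pair below macrophage-like cells was called.

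Il1rn, the antagonist of the same receptor, shared those 2 classes in another proportion. It stood at 530 and 686 CPM in dendritic cell-like cells and at 579 and 610 CPM in macrophage-like cells, with overlapping replicates and no call between the classes (log2 fold change −0.19 ± 0.21, dendritic over macrophage, adjusted p = 0.52). Both were called higher (adjusted p = 1.1e-107 and 2.0e-165). The step down to the next class, smooth muscle at 5.89 and 12 CPM, was 6.20 ± 0.44 on the log2 scale (adjusted p = 3.2e-40). Enteric glia-like cells had no Il1rn UMI and were called lower (adjusted p = 0.0025), but not without collection 1A, 2A or 2C, when another class also had no UMI. Because macrophage-like cells were the larger class, they held 71.7% of all Il1rn UMIs and dendritic cell-like cells 21.7%, whereas Il1b UMIs were split nearly evenly, 47.3% and 45.3%.

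Il1a, the ligand that is active without processing, was scarce, with 95 UMIs in all. Macrophage-like cells had 51.6 and 109 CPM (80 ± 40.3) and held 86.3% of these UMIs, and dendritic cell-like cells had 16.4 and 47.3 CPM on 9 UMIs, 5 of them in 1 cell. Fibroblasts had 3 UMIs and the other 7 tested classes none. Both myeloid classes were called higher by edgeR (adjusted p = 3.7e-34 and 1.2e-06), but not by DESeq2 (adjusted p = 0.32 and 0.52), and these 2 calls rest on the tool. Neighbouring levels differed between macrophage-like and dendritic cell-like cells (1.58 ± 0.59, adjusted p = 0.023).

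Il18 had 70 UMIs in all and was not tested. Macrophage-like cells had 21.8 and 27.1 CPM (24.5 ± 3.76) and fibroblasts 6.84 and 6.64 CPM, on 25 and 31 UMIs. The 22 epithelial-like cells left after stripping held 1 UMI, and B cell-like and T/NK/ILC-like cells none. Epithelium, the usual source of IL-18, was thus too small a class here to give a level.

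Among leukocytes clustered on their own, Il1b and Il1rn parted between macrophage clusters. Cluster 3, macrophage-like and led by Mmp13, H2-M2 and Thbs1, had 1596 and 1527 CPM of Il1b, while cluster 1, macrophage-like and led by F13a1, Cd163 and Lyve1, had 18 and 36.6 CPM, a log2 fold change of −5.71 ± 0.31 for cluster 1 over cluster 3 (adjusted p = 2.3e-54). Il1rn differed far less, at 665 and 672 CPM in cluster 3 and 402 and 524 CPM in cluster 1, and that difference was not called (−0.53 ± 0.23, adjusted p = 0.075). Cluster 4, dendritic cell-like and holding 6 cells of the macrophage-like class, led in Il1b with 2187 and 2867 CPM, above cluster 3 by 0.60 ± 0.18 (adjusted p = 0.0068). Cluster 7, left unnamed and led by Lpl, Hmox1 and Spp1, had 507 and 439 CPM of Il1b, below cluster 3 by 1.76 ± 0.26 (cluster 3 over cluster 7, adjusted p = 9.8e-10), and the highest Il1rn, 688 and 981 CPM. In the order of Il1rn levels, none of the steps from cluster 7 through 3 and 4 to 1 was called (adjusted p = 0.58, 0.40 and 0.52). Il1b in cluster 1 was not called against that in B cell-like cluster 2 (34.6 ± 21.3 CPM, adjusted p = 0.86), and T cell-like cluster 6 had no Il1b UMI (lower, adjusted p = 3.4e-05; not called without collection 1B, when cluster 8 had none either).

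**Figure D2:**
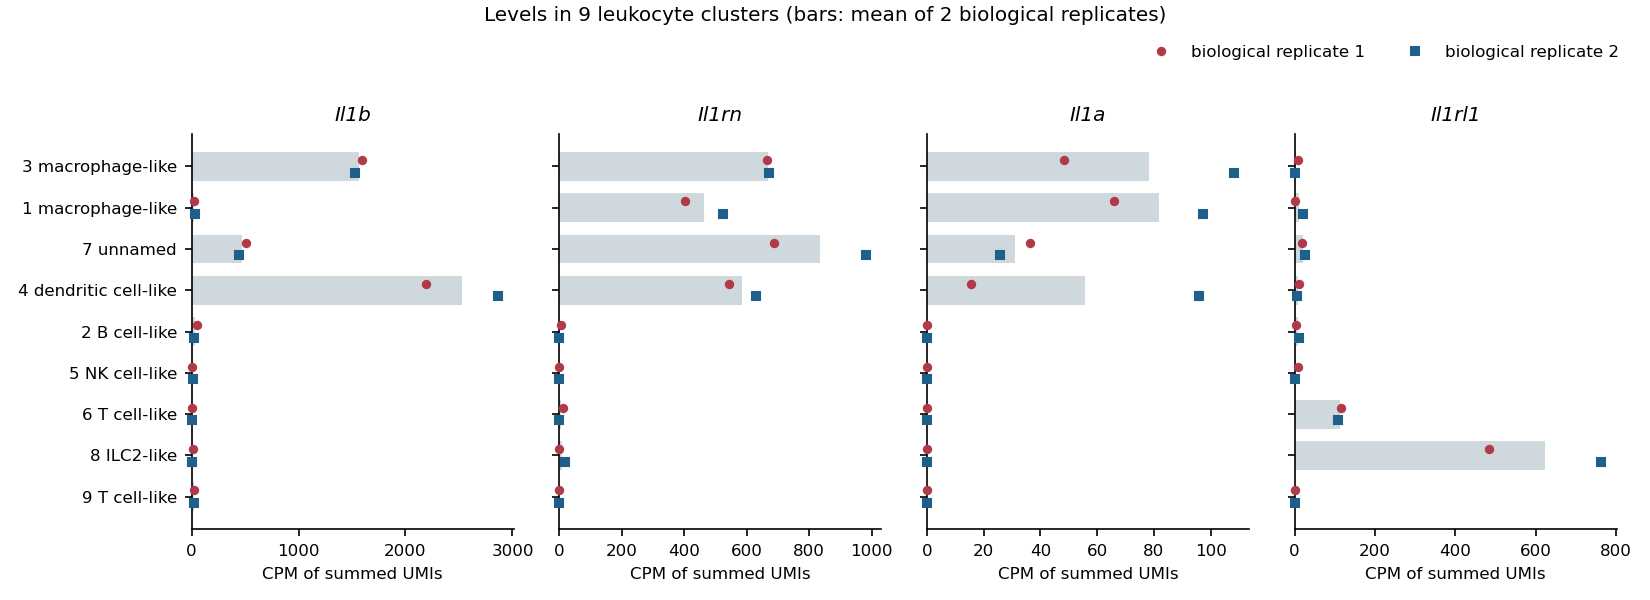
Levels of Il1b, Il1rn, Il1a and Il1rl1 (CPM of summed UMIs, a separate scale for each gene) in 9 leukocyte clusters, given by number and name; bars are means of 2 biological replicates and points the replicates. Macrophage-like clusters 3 and 1 lie at 1562 and 27.3 CPM of Il1b but at 668 and 463 CPM of Il1rn, and Il1rl1 stands at 624 CPM in ILC2-like cluster 8.

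Within leukocyte clusters, 3 of the 8 genes (Il1b, Il1rn and Il1rl1) passed the filter on low counts, and 9 of 27 tests were called higher and 1 lower (33.3% and 3.70%), against 18% and 8.6% of all tests in these clusters. These few genes, chosen with earlier results known, could pass the filter through clusters where they are high, so the shares show no excess for the set. Il1a was not tested in these clusters. Clusters 1, 3 and 4 had 65.9 and 97.5, 48.3 and 108, and 15.5 and 96 CPM, overlapping throughout. Cluster 4 held 17 Il1a UMIs in 6 cells, against 9 UMIs in 4 cells of the whole dendritic cell-like class. Part of its Il1a thus came from the 6 cells of the macrophage-like class placed in it. Macrophage markers summed to 6805 and 7477 CPM in cluster 3, 8063 and 8212 CPM in cluster 1 and 6025 and 5243 CPM in cluster 7, against 511 and 1180 CPM in cluster 4. Dendritic cell markers summed to 252 and 282 CPM in cluster 3, against 2548 and 2613 CPM in cluster 4. The 7 neutrophil markers summed to 108 and 89.3 CPM in cluster 3 and 10.3 and 20.6 CPM in cluster 4, with S100a8, S100a9 and Retnlg at 0 in cluster 3. Il1b levels also varied between droplet runs of 1 suspension: in cluster 3 they were 1752 and 1450 CPM in collections 1A and 1B, and 1091, 935 and 2397 CPM in 2A, 2B and 2C.

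Cell by cell, Il1b was found in 68.2% of the 129 cells of cluster 4 (95% exact interval 59.4 to 76.1), 55.1% of the 147 cells of cluster 3 (46.7 to 63.3), 23.2% of the 95 cells of cluster 7 and 4.26% of the 235 cells of cluster 1 (2.06 to 7.69). Fibroblasts had 2.13% at a median of 1289 UMIs, and whether free RNA gave such shares was not tested. After every cell was thinned to 500 UMIs, the shares were 45.7%, 30.6%, 20.9% and 0.862%, and 0.659% in fibroblasts. At equal depth cluster 1 was thus close to fibroblasts, on few positive cells, while its share before thinning was the higher one. Il1rn was found in 64.6% of cells in cluster 3, 39.6% in cluster 1, 38.8% in cluster 4 and 34.7% in cluster 7, against 0.762% in fibroblasts. Median depths ran from 2929 UMIs in cluster 3 through 2238 in cluster 4 and 1541 in cluster 1 to 756 in cluster 7. At 500 UMIs the Il1rn shares were 23.8%, 22%, 18.1% and 27.9%, and 0.231% in fibroblasts, so the lead of cluster 3 was not kept at equal depth. Intervals cover counting error only.

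Ligand and antagonist mRNA were often found in the same cell. Of 81 cells of cluster 3 with Il1b, 63 also had Il1rn, and of 88 such cells of cluster 4, 45 did. Il1rn was common among all cells of these clusters (shares above), and cells with more UMIs can show both genes more easily. Whether these genes share cells beyond that was not tested. In cluster 1, 93 cells had Il1rn and 10 had Il1b, with 4 in both. Il1b was uneven between cells: the fullest cell of cluster 3 held 62 of its 755 Il1b UMIs, and 47 of the 81 positive cells held 3 or more.

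**Figure D3:**
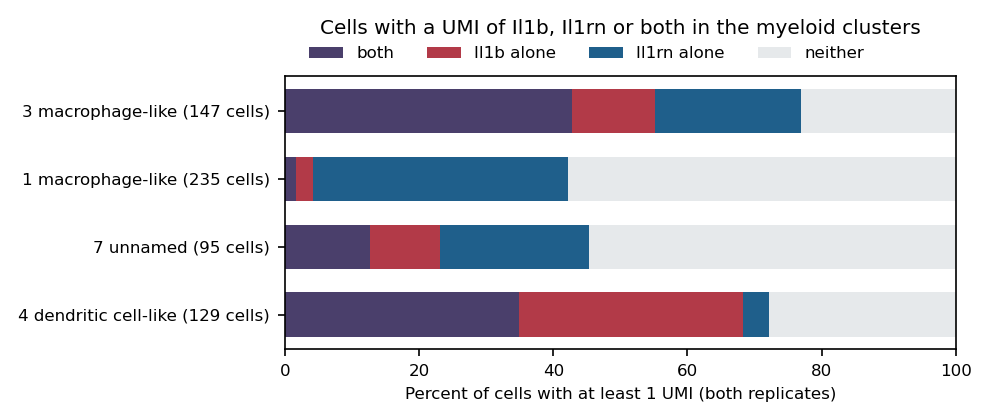
Share of cells (percent, horizontal axis, both replicates together, not thinned) with at least 1 UMI of both genes, of Il1b alone, of Il1rn alone or of neither, in the 4 clusters with macrophage or dendritic markers. Il1rn alone makes up most of the positive cells of cluster 1 (93 with Il1rn, 10 with Il1b), and cells with both genes number 63 in cluster 3 and 45 in cluster 4.

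Il33, the ligand of ST2, was highest in lymphatic endothelial-like cells and fibroblasts among the tested classes. Lymphatic endothelial-like cells had 212 and 159 CPM (186 ± 37.6) and fibroblasts 33.7 and 41.9 CPM (37.8 ± 5.81), without overlap. Both were called higher (adjusted p = 4.7e-36 and 2.1e-14), and lymphatic cells exceeded fibroblasts by 2.04 ± 0.32 on the log2 scale (adjusted p = 3.8e-09). Smooth muscle followed with 29.4 and 0 CPM and was not called against fibroblasts (adjusted p = 0.057), and dendritic cell-like cells had no UMI. Blood endothelial-like cells had 9.25 and 6.66 CPM, and the 22 epithelial-like cells, too few to give a level, had no UMI. Fibroblasts, the larger class, held 62.9% of all Il33 UMIs and lymphatic cells 26.6%. Il33 was found in 27.7% of lymphatic cells (21.1 to 35.2) at a median of 1529.5 UMIs, or 11.3% after thinning, against 0.417% of macrophage-like cells at a median of 1771, or 0.214%. Among endothelial clusters, where 2 of the 8 genes (Il33 and Il1r1) passed the filter, 1 of 8 tests was higher (12.5%) and 1 lower, against 14.8% and 9.2% of all tests. The higher one was Il33 in the lymphatic cluster, above blood endothelial cluster 3 (9.16 and 3.78 CPM) by 4.85 ± 0.51 (adjusted p = 2.5e-19). The 34 venular-like cells, too few to test, had 34.5 and 25.2 CPM on 5 UMIs.

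Within fibroblasts, Il33 and its receptor gene Il1rl1 were highest in different clusters. Cluster 2, adventitial-type, had 99.8 and 159 CPM of Il33 (129 ± 41.9, adjusted p = 1.4e-23), against 18.5 and 18.5 CPM in cluster 1 (unnamed, led by Edil3, Hapln1 and Stmn2), a difference of 2.97 ± 0.30 (adjusted p = 1.2e-14). Every collection of cluster 2 lay between 99 and 187 CPM. Subepithelial-type clusters 4 and 5 had no Il33 UMI in 336 and 266 cells, which allows shares of up to 0.893% and 1.13% of cells with a UMI. Cluster 1 was also called higher for Il33 (adjusted p = 0.023), a call that was lost in 8 of the alternatives, with an adjusted p of up to 0.19 with DESeq2. Clusters 4 and 5, without a UMI, pull down the mean log level against which cluster 1 was set. Against cluster 3 (8.63 and 14.4 CPM) cluster 1 was not called (0.42 ± 0.53, adjusted p = 0.65). Lymphatic markers summed to 342 and 404 CPM in cluster 2, against 25656 and 24063 CPM in lymphatic cells.

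Il1rl1, the chain that binds IL-33, was called higher in T/NK/ILC-like cells and fibroblasts. The T/NK/ILC-like class had 142 and 235 CPM (188 ± 66.1, log2 fold change 4.69 ± 0.33, adjusted p = 7.1e-41) and fibroblasts had 91.6 and 34.9 CPM (63.3 ± 40.1, 3.20 ± 0.29, adjusted p = 2.5e-26). The classes did not overlap (1.34 ± 0.27 between them, adjusted p = 4.0e-06), and the step from fibroblasts to dendritic cell-like cells (9.41 ± 2.15 CPM) was 2.81 ± 0.67 (adjusted p = 0.00014). Fibroblasts nonetheless held 69.3% of Il1rl1 UMIs and T/NK/ILC-like cells 23.8%.

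Nearly all fibroblast Il1rl1 lay in subepithelial-type cluster 4, led by Plau and Nrg1, with 629 and 230 CPM (430 ± 282, log2 fold change 5.69 ± 0.23, adjusted p = 1.3e-41). It held 256 of the 285 fibroblast UMIs. Annotated Il1rl1 transcripts end at different places, among them chr1:40446723 and chr1:40465415. Counts per gene do not show which of these transcripts, or which form of ST2, the cluster had. The other subepithelial-type cluster, 5, had 19.1 and 40.2 CPM (3.80 ± 0.36 lower than cluster 4 on the log2 scale, adjusted p = 2.6e-16), on 10 UMIs in 3 cells, and clusters 1, 2 and 3 had 3.08 to 8.63 CPM and were called lower, though cluster 2 not without collection 1A and cluster 3 not in 9 of 15 alternatives. The 2 replicates of cluster 4 were far apart, and so were their collections: 728 and 501 CPM in 1A and 1B, against 291, 98.3 and 287 CPM in 2A, 2B and 2C. One cell of replicate 2 held 23 of its 68 UMIs. Il1rl1 was found in 21.1% of the cells of cluster 4 (16.9 to 25.9), 28.7% in replicate 1 and 13.6% in replicate 2, and in 11.4% after thinning, against 0.868% and 0 in blood endothelial-like cells (median depths 1669.5 and 1866 UMIs). Of 142 fibroblasts with Il33 and 92 with Il1rl1, none had both. Cluster 4, with most of the Il1rl1, had no Il33 UMI, so this count follows largely from the cluster levels. ILC2 markers summed to 1275 and 1099 CPM in cluster 4, against 15006 and 18170 CPM in ILC2-like cells, and Il13, Il17rb, Klrg1, Calca and Ccl1 were at 0 in cluster 4.

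**Figure D4:**
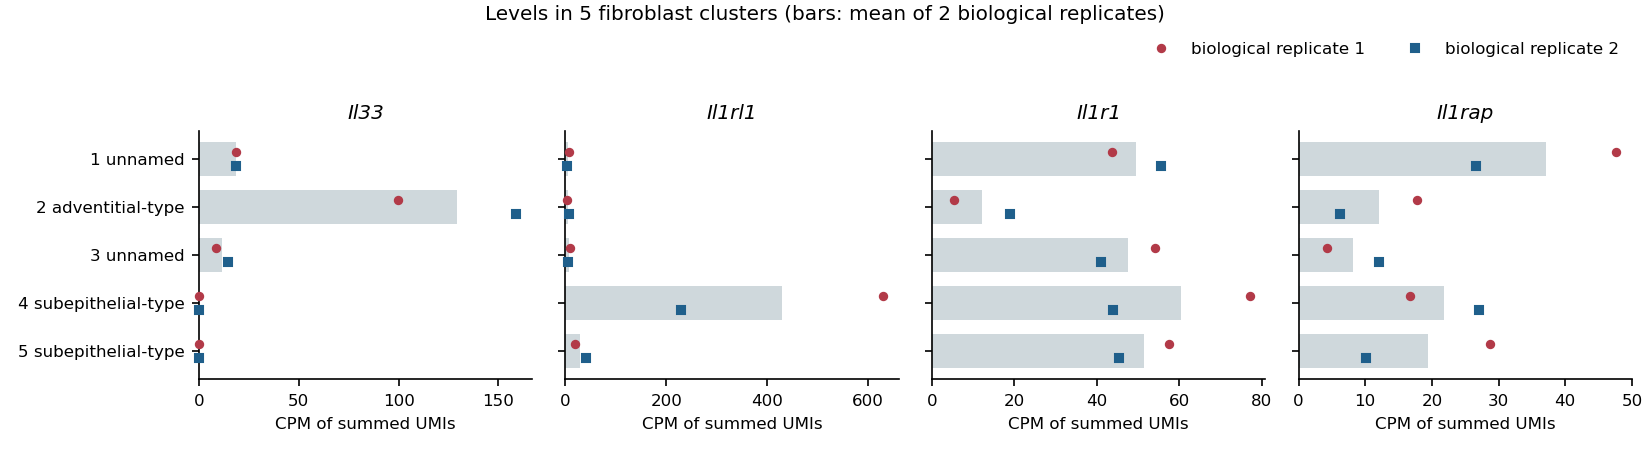
Levels of Il33, Il1rl1, Il1r1 and Il1rap (CPM of summed UMIs, a separate scale for each gene) in 5 fibroblast clusters; bars are means of 2 biological replicates and points the replicates. Il33 is highest in adventitial-type cluster 2 (129 CPM) and at 0 in clusters 4 and 5, Il1rl1 is highest in cluster 4 (430 CPM), and Il1r1 is lowest in cluster 2 (12.1 CPM).

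Among leukocytes, ILC2-like cluster 8 had 484 and 764 CPM of Il1rl1 (624 ± 197, adjusted p = 4.3e-35), in 41.9% of 93 cells and in 24.7% after thinning. T cell-like cluster 6, led by Tnfrsf4 and Ctla4, followed with 116 and 109 CPM (112 ± 5.22, adjusted p = 5.9e-05), 2.58 ± 0.51 below cluster 8 (cluster 8 over cluster 6, adjusted p = 7.6e-06). T cell-like cluster 9, led by Il22 and Il23r, had none.

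Il1r1, the signalling receptor of IL-1α and IL-1β, was highest where those ligands were low. Blood endothelial-like cells had 59.6 and 58.3 CPM and fibroblasts 41 and 42.8 CPM, and both were called higher (adjusted p = 2.6e-15 and 2.7e-13) with no call between them (0.39 ± 0.29, adjusted p = 0.31) or between fibroblasts and pericytes (14.1 and 34.4 CPM, adjusted p = 0.17). Macrophage-like cells had 9.92 and 3.88 CPM, dendritic cell-like cells 1 UMI and B cell-like cells none (lower, adjusted p = 0.021; 0.051 without collection 2C). In fibroblasts the low cluster was the adventitial-type one that carried Il33: cluster 2 had 5.35 and 18.8 CPM (−2.05 ± 0.39, adjusted p = 1.0e-05), and the other 4 tested clusters 40.9 to 77 CPM, without overlap. Cluster 4 was called higher (77 and 44 CPM, 0.95 ± 0.33, adjusted p = 0.024), but not by DESeq2 (adjusted p = 0.18) nor without collections 1A, 1B or 2A (up to 0.35), and with no filter on low counts (0.057). Among endothelial cells, the lymphatic cluster was low (4.51 and 5.89 CPM, −2.81 ± 0.84, adjusted p = 0.0023), but without collection 1A, 1B or 2A the gene did not pass the filter there and was not tested. The 34 venular-like cells had 207 and 202 CPM on 32 UMIs, with Il1r1 in 17 of them (50%, 32.4 to 67.6, and 8.82% after thinning, median 3315.5 UMIs), against 43.5 and 60.5 CPM and 22.6% of cells (4.03% after thinning, median 4689) in cluster 3. Lymphatic cells, at a median of 1529.5 UMIs, had 1.20% and 0. Venular-like cells held 24 and 8 Il1r1 UMIs in replicates 1 and 2, against 58 and 35 in the whole blood endothelial-like class. Part of the level of that class thus came from these few cells. The 6 detected venular markers of the venular-like cells summed to 11377 and 12245 CPM, against 110 and 94.5 CPM in cluster 3, and with 21 and 13 cells per replicate the venular-like cells were not tested. In leukocytes, 9 of 66 cells of T cell-like cluster 9 had 1 Il1r1 UMI each (122 and 81.8 CPM), and B, NK, ILC2-like and other T cell-like clusters had none.

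Il1rap, the accessory chain shared by both receptors, was led by a class that had little of either. Enteric glia-like cells had 369 and 384 CPM (376 ± 10.4, log2 fold change 5.22 ± 0.25, adjusted p = 3.7e-84) and held 55.1% of its UMIs, above the next class, dendritic cell-like cells at 21.9 and 31.5 CPM, by 3.94 ± 0.43 (adjusted p = 2.0e-18). Glia had 0 and 11.6 CPM of Il1r1 and 3.84 and 7.75 CPM of Il1rl1. Il1rap was found in 40% of glia (34.4 to 45.8) at a median of 1528 UMIs, or 15.2% after thinning, against 1.46% and 0.214% of macrophage-like cells at a median of 1771. Of 120 glia with Il1rap, 2 had Il1r1 and 2 had Il1rl1. Fibroblasts had 25.5 and 18.7 CPM and were called higher by a small margin (0.76 ± 0.31, adjusted p = 0.038), a call lost with DESeq2, with another scaling, with UMIs split between clustering and testing, and without collections 1B, 2A or 2C (adjusted p up to 0.55). Fibroblast cluster 1 had 47.6 and 26.7 CPM (1.24 ± 0.34, adjusted p = 0.0030; 0.23 with DESeq2 and 0.071 without collection 1A). B cell-like and lymphatic cells, with 1 UMI each, were called lower (adjusted p = 0.042 and 0.028), calls lost in 10 and 8 of 15 alternatives, among them leaving out any 1 collection.

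Receptor chains were seldom found in the same cell. Of 179 fibroblasts with Il1r1, 7 had Il1rap, and of 66 such blood endothelial-like cells, 5 did. Of 39 ILC2-like cells with Il1rl1, none had Il1rap, and of 71 cells of fibroblast cluster 4, 2 did. At 320 and 354 UMIs of Il1r1 and Il1rap in all 6005 cells, a missing UMI says little about a missing transcript.

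Across fibroblast clusters 5 of the 8 genes passed the filter (not Il1a, Il1rn and Il18), and 5 of 25 tests were higher (20%) and 4 lower (16%), against 12.3% and 8.51% of all tests; without collection 1A, 1B or 2A, 2 were higher. Of all pairs of classes, 121 of 315 differed for these genes (38.4%), with 38.3% over all genes tested. Pairs of fibroblast clusters differed in 21 of 50 cases (42%, against 20.4%). Pairs of leukocyte clusters did in 58 of 108 (53.7%, against 27%). The fibroblast pairs come from 5 genes and the leukocyte pairs from 3. These few genes, chosen with earlier results known, could pass the filter through clusters where they are high. Neither the shares of calls nor those of pairs therefore show an excess for the set. Between neighbours in the order of levels, 10 of 63 class pairs, 5 of 20 fibroblast pairs and 5 of 24 leukocyte pairs were called, so the order below the leading classes of a gene is mostly not resolved.

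Other genes of the pathway were read from lists written with earlier results of these data known. Of 9 symbols of other ligands (the IL-36 group and relatives, some genes listed under both an older and a newer symbol) 1 was in the tables and none was tested. Of 8 receptors and binding proteins 3 were tested. Il1r2, the decoy receptor that binds IL-1 without signalling, had 2143 and 1980 CPM in dendritic cell-like cells (2061 ± 115) and 962 and 748 CPM in macrophage-like cells (855 ± 151), with log2 fold changes of 6.22 ± 0.16 and 5.03 ± 0.16 (adjusted p = 2.4e-221 and 1.9e-163). Among leukocytes it had 2094 and 1852 CPM in cluster 4, 1593 and 1603 CPM in cluster 3, 398 and 310 CPM in cluster 7 and 120 and 56.9 CPM in cluster 1, the same order of those clusters as for Il1b. The IL-18 receptor chains Il18r1 (249 and 346 CPM) and Il18rap (165 and 221 CPM) were called higher in T/NK/ILC-like cells (adjusted p = 1.0e-77 and 9.2e-48), where Il18 itself had no UMI. Il18r1 was highest in T cell-like cluster 9 (508 and 736 CPM) and Il18rap in ILC2-like cluster 8 (262 and 373 CPM).

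Inflammasome and processing genes, which mature IL-1β and IL-18, were mostly called higher in the myeloid classes. All 7 tested of the 12 were higher in macrophage-like cells, where 28.6% of all genes were, and 5 of 7 in dendritic cell-like cells (18.1% of all genes). The sensor Nlrp3 had 197 and 174 CPM in dendritic cell-like cells and 375 and 388 CPM in macrophage-like cells, and the sensor Mefv 159 and 86.8 CPM and 95.2 and 89.1 CPM. Among leukocytes, Nlrp3 was called higher in clusters 1 (534 and 426 CPM), 7 (344 and 387 CPM), 3 (293 and 329 CPM) and 4 (186 and 219 CPM). Aim2, a sensor of cytosolic DNA, was also called in B cell-like and T/NK/ILC-like cells and pericytes. Casp4, the mouse caspase-11 gene, was highest in enteric glia (1030 and 1062 CPM, 2.28 ± 0.14, adjusted p = 2.2e-53), ahead of macrophage-like cells (706 and 727 CPM), and was lower in lymphatic cells (126 and 124 CPM).

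Among 14 tested adaptors and kinases of 18, 7 were higher and 1 lower (Chuk) in macrophage-like cells, where 28.6% of all genes were higher and 14.2% lower, and 7 higher and 0 lower in dendritic cell-like cells (18.1% and 11.9% of all genes). Lymphatic endothelial-like cells, the highest class for Il33, had 1 higher and 7 lower, against 20% and 13.5% of all genes. The 7 were Irak2, Myd88, Nfkb1, Nfkb2, Rela, Relb and Tab2, and Myd88, the shared receptor adaptor, had 27.1 and 5.89 CPM there, against 104 and 105 CPM in blood endothelial-like cells. Nfkb1 (474 and 490 CPM) and Nfkb2 (544 and 518 CPM) were highest in T/NK/ILC-like cells, and Rela in glia (265 and 310 CPM).

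NF-κB target genes, which IL-1 and many other signals induce, were called higher in several classes. Of 13 tested of 19, 12 were higher in macrophage-like cells (28.6% of all genes), 10 in fibroblasts (31.3%) and 7 in glia (24.1%, with 3 lower against 12.6%), and none was lower in the first 2. The neutrophil attractant Cxcl2 had 6524 and 7613 CPM in macrophage-like cells (4.98 ± 0.08), and Cxcl1 had 2219 and 1882 CPM in fibroblasts, 1616 and 2471 CPM in macrophage-like cells and 1595 and 1589 CPM in glia. Blood endothelial-like cells led in the adhesion molecule Icam1 (1337 and 1553 CPM) and the inhibitor Nfkbia (6308 and 5485 CPM). In lymphatic cells 1 of 13 was higher and 6 lower (20% and 13.5% of all genes), the lower ones being Cxcl1, Cxcl2, Nfkbiz, Ptgs2, Sod2 and Tnfaip3. Dendritic cell-like cells, the highest for Il1b, had 6 higher and 3 lower (Ccl7, Cxcl1 and Vcam1), against 18.1% and 11.9% of all genes.

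Between fibroblast clusters the NF-κB targets differed widely. All 13 tested were higher in cluster 3 (unnamed, led by Saa3, Cxcl9 and Niacr1), 9 in cluster 4 and 7 in cluster 2 (each with 1 lower), while 11 were lower in cluster 1 and all 13 in cluster 5. Over all genes, 8.97% were higher in cluster 3, 14.9% in cluster 4 and 19.2% in cluster 2, and 12.3% were lower in cluster 1 and 9.72% in cluster 5. Medians of the list were 1.70, 1.53 and 0.51 in clusters 3, 4 and 2 and −1.31 and −2.87 in clusters 1 and 5, against medians of all genes between −0.03 and 0.06. Ptgs2, the inducible cyclooxygenase, had 3050 and 2353 CPM in cluster 4, 1123 and 868 CPM in cluster 3 and 210 and 181 CPM in cluster 5. Cxcl1 had 4147 and 2730 CPM in cluster 3, 2902 and 3381 CPM in cluster 4, 2703 and 3520 CPM in cluster 2, 691 and 631 CPM in cluster 1 and 297 in both replicates of cluster 5. Il1r1 was not called between subepithelial-type clusters 4 and 5 (60.5 ± 23.4 and 51.3 ± 8.60 CPM, adjusted p = 0.44). Saa3 is both a leading gene of cluster 3 and on the list. The 19 immediate-early and heat-shock genes that tissue dissociation can induce summed to 46823 and 50120 CPM in cluster 3, 38146 and 44455 in cluster 4, 36299 and 35582 in cluster 2, 32489 and 33154 in cluster 1 and 29351 and 36674 in cluster 5, and their part in this result was not tested.

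**Figure D5:**
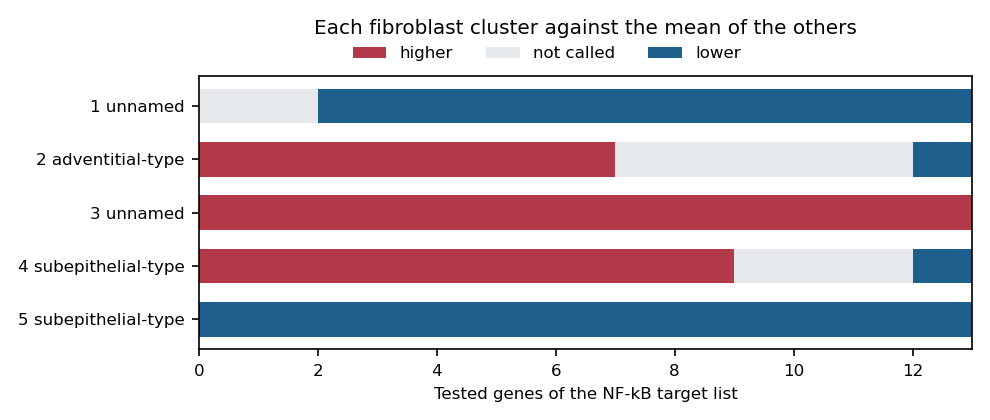
Number of the 13 tested NF-κB target genes (horizontal axis) called higher, not called or lower in each of 5 fibroblast clusters against the mean of the others. Cluster 3 has all 13 higher and cluster 5 all 13 lower, with 9 higher in cluster 4, 7 in cluster 2, 1 lower in each of these, and 11 lower in cluster 1.

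Type 2 effector genes, some of which IL-33 is known to induce in ILC2s, were mostly called higher in lymphocytes, as Il1rl1 was. Of 11, 5 were tested across classes, and 4 of these were higher in T/NK/ILC-like cells (23.2% of all genes). Across leukocyte clusters, which had their own filter, 5 were tested and all 5 were higher in ILC2-like cluster 8 (13.5%). Il5, the eosinophil growth factor, had 3418 and 4138 CPM in cluster 8, Gata3, the ILC2 transcription factor, 589 and 835 CPM, and Areg, an epidermal growth factor receptor ligand, 445 and 1030 CPM. Cluster 8 was named from markers that include Gata3, Il5, Il13 and Areg, so its counts are not independent of its name. Among stromal cells, fibroblast cluster 4 had 472 and 348 CPM of Areg (3.55 ± 0.19, adjusted p = 5.0e-33), against 30.9 ± 3.07 CPM in cluster 1. Ccl11, the eosinophil attractant, had 132 and 188 CPM in adventitial-type cluster 2, 132 and 154 CPM in cluster 1 and 77.7 and 98.6 CPM in cluster 3, and no UMI in clusters 4 and 5.

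Genes most like each of the 8 were ranked by Pearson r of log2(CPM + 10) over 20 sums of 10 classes, which share libraries and differ in depth. They were Mmp12, Cd80 and Plbd1 for Il1b (r = 0.975, 0.972 and 0.969), Lyz2, Apol7c and Mmp12 for Il1rn (0.980, 0.970 and 0.964), and Pirb and Clec4n for Il1a (0.992 and 0.966). Il33 was most like Zfp521, Fxyd6 and Il7 (0.928, 0.910 and 0.906), and Il1rl1 like Lef1, Gata3 and Serpina3g (0.872, 0.844 and 0.844). Il1rap was most like Cyp2j9, Kcna1 and Flrt1 (0.949, 0.933 and 0.932), Il1r1 like 1810011O10Rik, Col13a1 and Snai2 (0.831, 0.798 and 0.794), and Il18 like Ccl7, 5430435G22Rik and Cstb (0.831, 0.828 and 0.827). With a pseudocount of 1, no more than 1 of the 3 recurred for any gene, and none for Il1r1 and Il1rap, so these neighbours depend on how low levels are treated.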

How the data were processed

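The authors' deposited tables hold UMI counts per gene and cell barcode, 1 table per droplet collection, not normalized. The submitters' processing notes name STAR 2.6 and mm10; the annotation, the strand setting and the rule that chose barcodes are not given in the sources used here. Barcodes with 300 or more genes and at most 10% mitochondrial UMIs were kept (1263 had fewer genes and 667 more mitochondrial UMIs). Log-normalised counts of 2000 variable genes, without 85 held-out genes, gave 30 principal components, 15 neighbours and Leiden clusters (scanpy 1.11.5), named from markers. The members and lists were chosen with earlier results of these data known. Raw counts were summed per biological replicate and cluster (at least 20 cells in each replicate) and tested with edgeR 4.0.16 (filterByExpr, TMM, two-sided quasi-likelihood tests, Benjamini-Hochberg). Biological replicate was a block, because sums of 1 number come from 1 cell suspension, per the series design text. Collections hold 1461337 to 2953455 retained UMIs. DESeq2 1.42.0, other filters and normalizations, and leaving out each collection were alternatives. The statistics were also run on simulated sums, with some genes changed in 1 cluster and all genes level across the others. This setting does not cover genes that lack UMIs in several classes. Clusters and tests share cells, so p-values are smaller than in independent cells, and a gene could pass the filter through the class where it is high. Named genes were the 8 members, up to 4 genes of each list with the highest CPM among those called higher, list genes lower in the class highest for a ligand, and the 3 genes most like each member, of which 1 for Il1a is not reported here. Nrg1, Plau and other leading genes of clusters only describe them.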

Additional observations from a re-analysis of the deposited data

Results flagged for a closer look

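Over 39 groups of the 5 droplet collections, 2 had a collection far from the others, and chance flags about 1 in 20. Over all cells, Il1rn was highest in collection 2C, at 114 CPM on 179 UMIs, against 83.5 CPM in the nearest collection (gap over range 0.722, critical value 0.71). In dendritic cell-like cells, Il1a was highest in 2C, at 89.6 CPM on 5 UMIs, against 22.9 CPM in the nearest (0.744). Collection 2C is 1 of 3 runs of the same suspension, and the reason was not tested.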

How the results depend on the processing

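Each setting was changed alone. Of 421 recomputed tests of the highest class or cluster of each gene and of every call of higher, 397 kept direction and side of the threshold, 23 kept direction but lost the call, 1 gained it (Il1r1 in endothelial cluster 3 without the highest doublet scores, adjusted p = 0.047) and none reversed. The lost calls of higher were those of Il1a, of Il1rap in fibroblasts and their cluster 1, of Il1r1 in fibroblast cluster 4 and of Il33 in cluster 1. Alternatives in which a gene did not pass the filter are not among the 421. Il1r1 in blood endothelial-like cells and in fibroblasts, for example, was tested in 10. With only 1 biological replicate left no test was made, and fold changes kept their direction. Of these, 30 lay within 1 SE of the reported value and 32 moved by more. Of 16 calls of lower, 3 held in every alternative that tested them (Il1r1 in the lymphatic cluster and fibroblast cluster 2, Il1rl1 in fibroblast cluster 1), the other 13 were lost in 1 or more (52 of 228 recomputed tests), and none reversed.
Across classes, 14 calls were higher and 10 lower. Sums per collection, where 4 of the 8 genes passed the filter, gave 8 higher, UMIs split between clustering and testing 9 higher and 2 lower, and no filter on low counts 6 lower. Across fibroblast clusters (5 higher), DESeq2 gave 2 and sums per collection 3. Across leukocyte clusters (9 higher, 1 lower), no filter gave 15 higher, and DESeq2 gave 4 lower, split UMIs 3, a minimum of 200 genes 2 and no mitochondrial limit 4. Across endothelial clusters (1 higher, 1 lower), sums per collection gave 0 and 0 because none of the 8 passed the filter, split UMIs 0 lower and no highest doublet scores 2 higher. Called neighbours were 6 of the classes with DESeq2 (10 as reported), 3 of fibroblasts with DESeq2 or a minimum of 200 genes (5), and 3 of leukocytes with split UMIs (5).
Leaving out 1 collection at a time gave 9 to 14 higher and 2 to 8 lower across classes, 2 to 4 and 2 to 3 across fibroblast clusters, 9 and 0 to 1 across leukocyte clusters, and 1 and 0 to 1 across endothelial clusters. Neighbours then numbered 8 to 11, 3 to 5 and 5 to 6. The lowest counts came without 1B across classes, without 1A, 1B or 2A for higher and 1A for lower calls of fibroblast clusters, without 1B for leukocytes and without 1A, 1B or 2A for endothelial clusters.
Without the replicate block, counts were 14 higher and 10 lower across classes, 5 and 3, 9 and 1, and 1 and 1 across fibroblast, leukocyte and endothelial clusters, and no count moved by over 1.5 times. Leaving out the 12 cells whose barcode occurs in 2 collections, chosen after seeing the data, gave 14 and 9 across classes. Thinning moved 26 of 31 shares of cells. Levels on fewer than about 10 UMIs, as for Il18 and most of Il1a, are limited by depth.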
